A study of Mus musculus with 4 samples.

Results

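Brain tissue of old tumor-bearing mice was compared with brain tissue of old naive mice, gene by gene. The comparison covers every protein-coding gene with at least 1 FPKM (fragments per kilobase of transcript, scaled to sequencing depth) in either old library, where gene types come from the GENCODE M21 annotation. This rule kept 13582 of the 21995 protein-coding genes and of the 54532 genes of all types in the files. Just inside it were Zfp993, at 1.0025 FPKM in old naive tissue, and Tmem220, at 1.0049 FPKM in old tumor-bearing tissue. Just outside were Spag8 (0.99983 FPKM, naive) and Rnase6 (0.99971 FPKM, tumor-bearing).

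Both groups were C57BL/6 mice labelled old. The tumor-bearing mice had 50000 GL261 cells placed in the brain and were sampled on day 21, and the tissue was taken outside the tumor mass. The naive mice were untreated controls, although their labels carry the same cell line tag, and the group tag was followed here. Old is described as 8 to 90 weeks, a span that includes that of the young mice (8 to 12 weeks), so "old" is used only as labelled. Young naive and young tumor-bearing mice, labelled in the same way, complete the series of 4 libraries. Each group was 1 library, and the sources used here do not say whether it pooled several mice. No difference below therefore has a replicate check, and each statement compares 2 libraries.

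GL261 is a glioma line that was induced chemically in C57BL/6 mice and is grown in mice of the same strain, so that the host keeps its immune system. Interferon-gamma from T cells and NK cells acts through a cell surface receptor and its kinases, and it raises antigen presentation, chemokines and a family of defense GTPases in glia, myeloid cells and tumor cells. Brain tissue itself is dominated by transcripts of neurons, oligodendrocytes and astrocytes.

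The 4 libraries held between 19572251 and 23267926 fragments in genes, recovered from the deposited values. Old naive tissue had 19628991 and old tumor-bearing tissue 19572251, so the old pair was nearly equal by this measure. The number by which the authors divided was 0.797 times the fragments in genes for old naive tissue and 1.19 times for old tumor-bearing tissue. Other ways of scaling moved the median of all genes up by 0.31 to 0.56 on the log2 scale. Many gene list medians below 0 are given with their range under these scalings. Medians above 0 are given without it and also moved up, some of them past 2-fold. The median of integrins went from 0.86 to between 1.14 and 1.39. That of amino acid and one-carbon synthesis under ATF4 went from 0.79 to between 1.10 and 1.36. Each fold is followed in parentheses by an exact 95% interval from the recovered fragments, which covers counting error only. In bulk tissue, fewer cells of a type and less RNA per cell cannot be told apart.

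Old tumor-bearing tissue differed widely from old naive tissue. At least 2-fold higher were 2627 genes (19.3%), at least 2-fold lower were 4028 (29.7%), and 6927 (51%) lay within 2-fold. The median log2 ratio was -0.28, and the 5th and 95th percentiles were -2.46 and 3.38. The 2 directions were unlike in shape: 839 genes were at least 8-fold higher and 168 at least 8-fold lower, and 226 were at least 32-fold higher against 1 gene lower. Genes that were lower were abundant ones, with a median of 13.5 FPKM in naive and 3.77 FPKM in tumor-bearing tissue, whereas higher genes had medians of 1.44 and 8.33 FPKM. Of the higher genes 1118 were below 1 FPKM in naive tissue and of the lower genes 798 were below it in tumor-bearing tissue, and such genes entered only because of the library in which they were high. The split depended on scaling: higher genes made up 39.5% of the 2-fold differences as deposited (2627 to 4028), 51.2% with median-of-ratios scaling (3292 to 3140), 52.1% with totals that leave out mitochondrial and the 50 highest genes (3347 to 3072), 55.8% with equal FPKM totals (3585 to 2845) and 61.4% when scaled by fragments in genes (4012 to 2519).

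**Figure D1:**
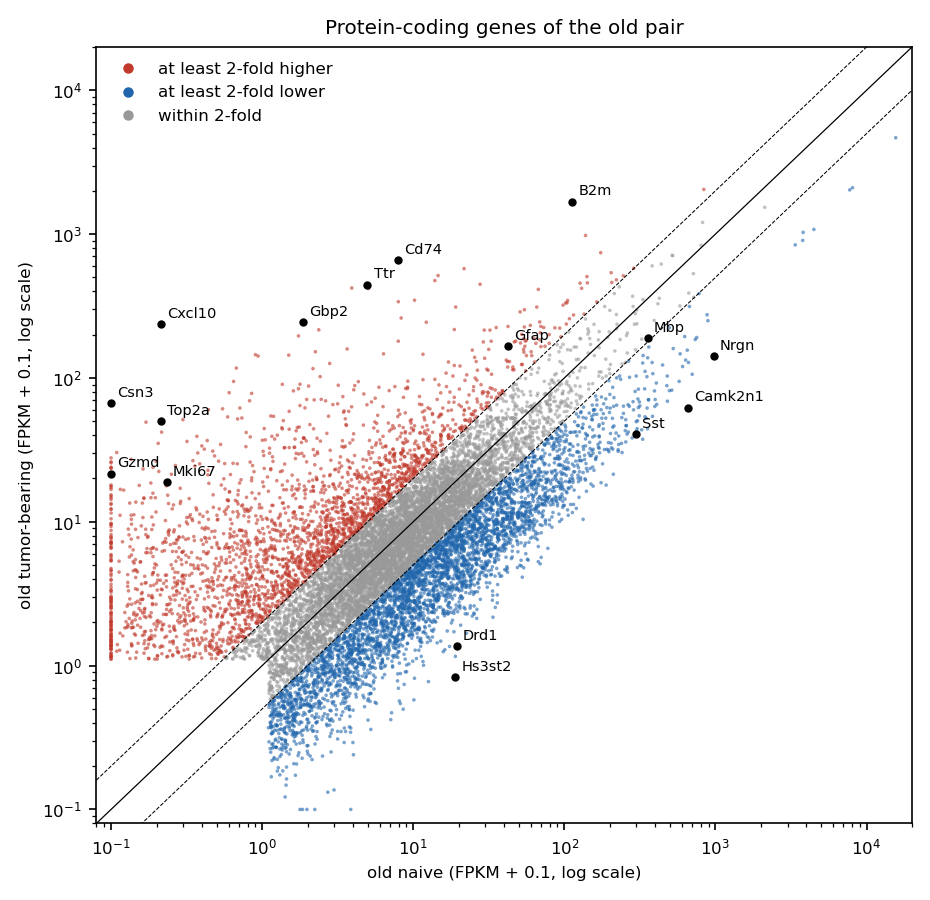
FPKM + 0.1 of each of the 13582 protein-coding genes in old naive (x axis) and old tumor-bearing tissue (y axis), both on log scales, with the diagonal drawn solid and 2-fold lines dashed. Higher genes (red) reach far from the diagonal at low naive levels, with Cxcl10 farthest out, and lower genes (blue) form a band below it that includes abundant neuronal genes such as Nrgn.

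At the upper end stood Cxcl10, a chemokine that draws T cells, at 0.114 FPKM in old naive and 237 FPKM in old tumor-bearing tissue (2085-fold, 814 to 7653). The same gene was at 0.0869 and 3.69 FPKM in young naive and young tumor-bearing tissue, so the old tumor-bearing library was the highest of the 4. Csn3, a casein of milk, had 0 fragments in old naive tissue and reached 66.5 FPKM in old tumor-bearing tissue, at least 1439-fold higher. Car6, a secreted carbonic anhydrase, was at 0.0704 and 49.2 FPKM, from 2 fragments in naive tissue (699-fold, 193 to 5777). The other genes of the 10 highest with established symbols that reached 10 FPKM were Oas3, Pet2, Ubd, Top2a and granzymes D, F and G. Top2a, the DNA topoisomerase of dividing cells, was at 0.113 and 49.9 FPKM (439-fold, 270 to 769). Granzymes D, F and G had 0 fragments in old naive and in both young libraries, and 21.5, 25.6 and 26.0 FPKM in old tumor-bearing tissue. These 3 are close copies, and fragments can be split between them.

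At the lower end stood genes of forebrain neurons. Hs3st2, a heparan sulfate sulfotransferase of neurons, was at 18.9 FPKM in old naive and 0.733 FPKM in old tumor-bearing tissue (25.7-fold lower, 19.4 to 34.7). Gpr6, a receptor of striatal neurons, was at 12.5 and 0.674 FPKM (18.5-fold lower, 12.6 to 28.2), and Drd1, the D1 dopamine receptor, at 19.3 and 1.26 FPKM (15.4-fold lower, 12.6 to 19). Cckbr, the brain cholecystokinin receptor, was at 33.6 and 2.07 FPKM, and Tbr1, a transcription factor of deep cortical layers, at 35.9 and 2.63 FPKM. Igfn1, Dkkl1, Gsg1l, Epop and Cobl complete the 10 lowest, with log2 ratios from -4.13 to -3.74. For 9 of these 10 genes, all but Igfn1, the young pair lay within 2-fold. In old naive tissue all 10 were at or above the levels of both young libraries.

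Interferon signaling genes were higher, from the receptor down to its targets. Of 15 regulators and signal transducers listed for the interferon-gamma response 12 were at least 2-fold higher and none lower (median log2 ratio 2.78, against -0.28 for all genes), with 19.3% of all genes higher as background. The list includes Stat2, Irf7 and Usp18, which also belong to signaling by type I interferons. Which interferon acted was not tested. Ifngr1, a receptor chain, was at 6.37, 6.11, 5.66 and 13.5 FPKM in the young naive, then young tumor-bearing, then old naive and last old tumor-bearing library, an order kept in lists of 4 values below. Usp18, an interferon-induced gene, was at 0.438, 2.19 and 0.275 FPKM in the first 3 libraries and 109-fold higher in old tumor-bearing than in old naive tissue (62.3 to 212). Nlrc5, which switches on MHC class I genes, was at 0.0691, 2.78, 0.384 and 28.6 FPKM (74.5-fold, 56.6 to 100). In each of these genes old tumor-bearing tissue was the highest library, and for Usp18 and Nlrc5 young tumor-bearing tissue was the second. Irf7 was 35.9-fold higher (28.5 to 45.8) and the feedback inhibitor Socs1 40.8-fold (25.4 to 70.4).

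The interferon-induced GTPases, which disrupt vacuoles that hold intracellular pathogens, formed the list with the highest median. All 18 measured members were at least 2-fold higher, with log2 ratios from 4.44 to 7.24 and a median of 5.70. Summed over the list they came to 12.9, 123, 24.2 and 1589 FPKM, so the young tumor-bearing library also lay above both naive ones. Gbp2 was at 1.67, 21.2, 1.75 and 243 FPKM (138-fold in the old pair, 109 to 178), and Iigp1 at 0.611, 9.82, 0.840 and 142 FPKM (169-fold, 136 to 216). Gbp10 had 0 fragments in both naive libraries and reached 0.555 FPKM in young and 12.2 FPKM in old tumor-bearing tissue. Tgtp1 was 112-fold higher (68.0 to 201), and it is a near-identical copy of Tgtp2, which makes the split between them uncertain.

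Sensors of viral RNA and DNA in the cytosol followed, with 17 of 18 members at least 2-fold higher and none lower (median 4.78). Oas3, which makes the second messenger that activates RNase L, was at 0, 0.474, 0.00904 and 30.2 FPKM. Its old naive value rests on 1 fragment, so the fold of 3345 has an interval from 600 to 132138. Zbp1, a sensor of Z-form nucleic acid, was at 0.0554, 2.90, 0.199 and 51.2 FPKM (257-fold, 143 to 515), Ifi204 was 265-fold higher (113 to 818) and Oasl2 104-fold (82.7 to 132). All 4 of these genes were highest in old tumor-bearing tissue, with young tumor-bearing tissue next.

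Igtp, a GTPase of the list above, was at 2.44, 27.3, 4.96 and 419 FPKM (84.5-fold in the old pair). Its promoter and those of Cxcl10 and Gbp2 are shown because all 3 genes were far higher in old tumor-bearing tissue and each holds the core of the interferon-stimulated response element, GAAANNGAAA on either strand. Each run covers the 250 bases before the annotated start, read 5′ to 3′ on the strand of the gene, with the motif in capitals. Sequences are from RefSeq on GRCm38.p6, the assembly also called mm10. Cxcl10 lies on the minus strand at chr5:92348890-92349139, Gbp2 on the plus strand at chr3:142620413-142620662 and Igtp on the plus strand at chr11:58199306-58199555.
Cxcl10: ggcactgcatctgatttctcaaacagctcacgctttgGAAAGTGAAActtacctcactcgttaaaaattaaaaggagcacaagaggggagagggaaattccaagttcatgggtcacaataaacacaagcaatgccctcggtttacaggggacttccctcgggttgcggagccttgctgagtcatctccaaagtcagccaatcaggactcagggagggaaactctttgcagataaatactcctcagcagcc
Gbp2: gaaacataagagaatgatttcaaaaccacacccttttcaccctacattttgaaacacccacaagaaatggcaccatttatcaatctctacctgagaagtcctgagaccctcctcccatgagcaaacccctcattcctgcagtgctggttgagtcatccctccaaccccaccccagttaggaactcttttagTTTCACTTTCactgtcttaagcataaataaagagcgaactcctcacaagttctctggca
Igtp: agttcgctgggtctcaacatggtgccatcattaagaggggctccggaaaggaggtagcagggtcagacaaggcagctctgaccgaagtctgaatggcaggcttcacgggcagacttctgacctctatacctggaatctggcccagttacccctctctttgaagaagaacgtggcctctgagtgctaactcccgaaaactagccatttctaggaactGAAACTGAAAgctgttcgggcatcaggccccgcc
The match begins 213 bases before the start of Cxcl10, 59 before that of Gbp2 (where it is read from the opposite strand) and 34 before that of Igtp.

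Over whole windows of 250 bases before to 50 after each start, this core was present in 3.99% of all 27025 genes of the RefSeq table. It was present in 151 of 2039 genes at least 2-fold higher in old tumor-bearing tissue (7.41%) and in 167 of 5635 genes within 2-fold (2.96%). An E2F-type site (TTTGGCGC or TTTCCCGC, either strand), bound by factors of the cell cycle, was in 1.8% of all genes, 5.3% of higher genes and 3.39% of genes within 2-fold. The gamma-activated site (TTCNNNGAA) was nearly level, at 9.55%, 8.58% and 7.97% in the same order. So was the CCAAT box (CCAAT), at 41.1%, 42.4% and 43%. The cyclic AMP response element (TGACGTCA) was at 2.03%, 3.09% and 3.8%, and the TATA box (TATAAA) at 15.7%, 10.8% and 7.58%. The table held 80.1% of the higher genes and 83.5% of those within 2-fold outside chromosome 18. It held 78.8% of the lower genes, under the 80% required here of a class, so their shares are not given. A match is a description of letters and not of binding.

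Antigen processing for MHC class I, which loads peptides for CD8 T cells, was higher in 14 of 15 members and lower in none (median 3.90). Psmb8, a subunit of the immunoproteasome, was at 0.804, 4.44, 1.26 and 90.2 FPKM (71.5-fold in the old pair, 56.0 to 92.0). The peptide transporter gene Tap1 was at 0.500, 6.84, 1.51 and 81.2 FPKM (54.0-fold, 45.4 to 64.7). Among heavy chains, H2-K1 was at 11.1, 74.2, 21.6 and 575 FPKM and H2-D1 at 25.6, 79.2, 27.6 and 448 FPKM, and their reads may be shared with other class I genes. In all 4 genes old tumor-bearing tissue was highest and young tumor-bearing tissue second. Of the 18 constitutive proteasome subunits, which the immunoproteasome subunits replace in part, 5 (27.8%, against 19.3% of all genes) were at least 2-fold higher and none lower (median 0.41), Psmc2 the farthest at 16.0 and 43.6 FPKM in the old pair (2.73-fold, 2.56 to 2.90).

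Lymphocyte markers were higher from very low levels. Of 19 T cell and NK cell markers 15 reached the floor, 14 of them at least 2-fold higher and none lower (median 3.85, or 3.75 with genes of 0 fragments set to 3). Summed over the list they came to 3.11, 6.94, 5.80 and 66.3 FPKM. Gzmb, the granzyme of cytotoxic cells, had 0 fragments in old naive tissue and 17.2 FPKM in old tumor-bearing tissue (at least 129-fold). Prf1, perforin, was at 0.0495 and 3.28 FPKM from 2 and 197 fragments (66.3-fold, 18.1 to 551), and Nkg7 at 0.140 and 8.52 FPKM. With 1 FPKM required in both libraries, only Cd4 remained (3.87 and 2.12 FPKM), and the median turned to -0.84. All 5 measured B and plasma cell markers of 8 were higher (median 3.50), with Cd79a at 0.0877 and 4.19 FPKM. Ms4a1, Pax5 and Fcrla stayed below the floor in both libraries.

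Myeloid markers split by cell type. Of 16 monocyte and macrophage markers 12 were measured, 10 of them at least 2-fold higher and none lower (median 3.30). Lyz2, the lysozyme of myeloid cells, was at 6.47, 28.2, 12.1 and 244 FPKM (20.1-fold in the old pair, 17.7 to 22.9), and Arg1 was at 0.0659, 0.696, 0.143 and 8.67 FPKM. Aif1, a pan-myeloid gene also expressed by microglia, was at 1.95, 3.82, 3.25 and 12.7 FPKM (3.89-fold, 3.05 to 5.01). The 13 homeostatic microglia markers stayed close to even: none was 2-fold higher, 2 were lower, and the median of -0.06 turned positive with every other scaling (0.25 to 0.51). Of 11 neutrophil markers 4 were measured, with Csf3r higher and Ngp and S100a9 lower (median -1.18). Ly6g, the defining neutrophil marker, was at 0 in both old libraries. Of 12 dendritic cell markers 8 were measured, 4 higher and 1 lower (median 0.44), and the highest was Bst2 at 3.57, 25.6, 3.82 and 422 FPKM. Bst2 is also induced by interferon in many cells, while Xcr1 and Clec9a, which define cross-presenting dendritic cells, stayed below the floor.

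Cell division genes were higher together. All 22 mitotic spindle and kinetochore genes were at least 2-fold higher (median 4.79), with sums over the list of 12.8, 21.4, 13.6 and 263 FPKM. Bub1, a kinase of the spindle checkpoint, was at 0.0449, 0.425, 0.0147 and 11.0 FPKM, where the old naive value is 1 fragment. Aurkb, the Aurora B kinase, was at 0.249, 0.917, 0.0651 and 14.5 FPKM (222-fold in the old pair, 75.9 to 1081). Birc5, survivin, was 135-fold higher (65.1 to 335) and the centromere histone Cenpa 83.2-fold (59.4 to 120). The proliferation marker Mki67 was at 0.180, 1.19, 0.133 and 18.8 FPKM (141-fold, 92.0 to 228). In these genes only old tumor-bearing tissue went beyond 2 FPKM.

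The replication program moved with them. Of 25 factors of replication origins and forks 23 were at least 2-fold higher and none lower (median 3.15), with log2 ratios from 0.65 to 4.99. Mcm3, a helicase subunit, was at 0.795, 1.96, 1.16 and 39.9 FPKM (34.4-fold in the old pair, 27.1 to 44.4). Mcm6 was at 1.47, 3.26, 1.31 and 32.7 FPKM (24.8-fold, 20.3 to 30.8). Cyclins and their kinases were higher in 15 of 19 members and lower in none (median 3.37), led by Ccnb1 at 0.0152 FPKM (1 fragment) and 16.7 FPKM in the old pair. Of 21 nucleotide synthesis enzymes 17 were higher and none lower (median 2.19), with Rrm2, the ribonucleotide reductase subunit of S phase, at 0.618, 1.70, 0.415 and 26.3 FPKM. Repair genes of homologous recombination and crosslinks were higher in 14 of 17 measured members and lower in none (median 3.48). Old tumor-bearing tissue was the highest library for each gene named here.

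The promoter of Mcm6 is shown because it holds 2 E2F-type sites, in capitals, the first 110 bases before the start. It lies on the minus strand at chr1:128359706-128359955.
Mcm6: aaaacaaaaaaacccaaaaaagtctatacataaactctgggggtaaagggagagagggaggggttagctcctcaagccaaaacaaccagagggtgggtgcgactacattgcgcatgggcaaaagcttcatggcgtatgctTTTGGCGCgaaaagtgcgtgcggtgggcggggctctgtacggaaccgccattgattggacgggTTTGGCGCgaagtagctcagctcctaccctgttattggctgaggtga

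Chromatin regulators of dividing cells and DNA methyltransferases were higher in 11 of 15 measured members and lower in 1 (median 3.15). Hmga2, a fetal architectural protein found in many tumors, had 0 fragments in old naive tissue and 15.3 FPKM in old tumor-bearing tissue (at least 541-fold). Uhrf1, which guides maintenance methylation, was at 0.126, 1.56, 0.270 and 39.2 FPKM (145-fold, 91.7 to 245). Tet2, a demethylating enzyme, was the 1 lower member, at 3.01 and 1.43 FPKM (2.10-fold, 1.88 to 2.34). All 15 measured members had a promoter entry, and 4 of them (26.7%) held an E2F-type site: Dnmt1, Ezh2, Suz12 and Hells.

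Growth and biosynthesis genes were higher by smaller amounts. Of 18 factors of ribosome biogenesis 12 were at least 2-fold higher and none lower (median 1.38). Myc was at 1.46, 2.67, 1.48 and 21.0 FPKM (14.1-fold in the old pair, 11.0 to 18.5), and the nucleolar chaperone Npm1 at 40.6, 49.7, 35.3 and 224 FPKM (6.34-fold, 6.01 to 6.70). Of 24 cytosolic ribosomal protein genes 17 were higher and none lower (median 1.29, against -0.04 in the young pair). Rplp0 was at 144, 168, 138 and 978 FPKM and Rps2 at 129, 120, 141 and 507 FPKM, and fragments of both can be shared with processed pseudogenes. Among 16 genes of amino acid and one-carbon synthesis under ATF4, 6 were higher and 1 lower (median 0.79), with the stress pseudokinase Trib3 at 0.932 and 44.4 FPKM (47.7-fold, 33.5 to 70.3) and the cystine transporter Slc7a11 at 4.29 and 1.86 FPKM.

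Genes of energy metabolism were examined next. Of 20 glycolytic genes 3 were higher and 8 lower (40%, against 29.7% of all genes, with a median of -0.60, or -0.29 to -0.03 with other scalings). The lactate exporter Slc16a3 was at 0.589, 0.865, 0.757 and 15.8 FPKM (20.8-fold higher in the old pair, 16.2 to 27.2) and hexokinase 2, Hk2, at 1.28, 1.68, 0.814 and 5.63 FPKM. The neuronal enolase Eno2 was at 201, 184, 256 and 46.4 FPKM (5.52-fold lower, 5.35 to 5.70). Gapdh was listed at 13.1, 27.5, 53.8 and 4.69 FPKM, an uncertain value since it has many near-identical pseudogenes that can take its fragments. Of 22 nuclear respiratory chain subunits 5 were lower (22.7%, below the 29.7% of all genes) and none higher (median -0.55, or 0.02 at the upper end of the other scalings), with Cox4i1 at 322, 247, 356 and 138 FPKM. All 13 mitochondrially encoded genes were at least 2-fold lower (median -1.94), and their share of fragments was 5.51%, 4.72%, 5.44% and 2.12% in the 4 libraries. Of 21 cholesterol synthesis enzymes 20 were measured, 11 of them lower and none higher (median -1.07, or -0.76 to -0.50 with other scalings). Of 14 hypoxia-induced genes 1 was higher (Car9, at 0.361 and 2.28 FPKM) and 5 lower (35.7%, with a median of -0.10, 0.20 to 0.46 with other scalings).

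Genes known from glioma biology fell into contrasting groups. Of 20 receptor tyrosine kinases and ligands 19 were measured, 4 of them higher and 11 lower (median -1.17, or -0.87 to -0.61 with other scalings). These are 21.1% and 57.9%, against 19.3% and 29.7% of all genes, so the higher share lay near that of all genes. Higher were Met, the receptor of hepatocyte growth factor, at 0.904, 1.11, 0.541 and 11.6 FPKM (21.5-fold in the old pair, 16.8 to 27.9), Axl at 12.0, 15.9, 15.6 and 61.7 FPKM, Erbb2 and Erbb3. Lower were, among others, the neurotrophin receptor Ntrk3 at 5.76 and 1.32 FPKM and the astrocytic receptor Fgfr3 at 23.4 and 5.75 FPKM. Of 20 regulators of neural progenitors and the oligodendrocyte lineage 5 were higher and 6 lower (median -0.10, 0.21 to 0.47 with other scalings). These shares, 25% and 30%, lay near the 19.3% and 29.7% of all genes. Sox10, a factor of the oligodendrocyte lineage, was at 19.4, 21.9, 24.5 and 156 FPKM (6.38-fold, 6.00 to 6.78) and nestin, Nes, at 2.11, 2.70, 3.58 and 22.0 FPKM. Dcx, doublecortin of newborn neurons, was at 2.78 and 0.326 FPKM in the old pair (8.51-fold lower, 6.84 to 10.7). Myelin genes did not follow Sox10: of 18, none was higher and 1 lower (median -0.60, or -0.29 to -0.03 with other scalings), with Mbp at 425, 397, 356 and 188 FPKM. Of 14 oligodendrocyte precursor markers 1 was higher, Sox10 itself, and 5 lower (7.14% and 35.7%, with a median of -0.31, -0.02 to 0.23 with other scalings). Ptprz1 was at 17.9 and 6.22 FPKM in the old pair.

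Tumor suppressors and checkpoint genes fixed for naming were mostly higher. Cdkn2a, which encodes the inhibitors p16 and p19, was at 0.167, 2.18, 0.491 and 53.5 FPKM (109-fold in the old pair, 57.3 to 239). Trp53 was at 4.76, 6.14, 7.36 and 29.1 FPKM (3.95-fold, 3.58 to 4.37), and its target Cdkn1a at 8.34, 6.54, 6.19 and 32.9 FPKM (5.31-fold, 4.75 to 5.96). The list of Trp53 targets was mixed: of 16 measured genes, Cdkn1a included, 4 were higher and 4 lower (median 0.51). These are 25% each, against 19.3% and 29.7% of all genes. The lower ones were Plk2, Zmat3, Sesn1 and Perp. Cd274, the checkpoint ligand PD-L1, was at 0.608, 2.50, 1.22 and 22.2 FPKM (18.3-fold, 14.4 to 23.6). Ido1, which degrades tryptophan, was at 0.670 and 0.904 FPKM in the young pair and 0.424 FPKM in old tumor-bearing tissue, all below old naive tissue. Ido1 was 4.71-fold lower in the old pair (2.73 to 8.50).

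Mesenchymal and matrix genes were higher in part. Of 20 genes of mesenchymal or epithelial state 11 were measured, 8 of them higher and 1 lower (median 3.53, or 2.77 with genes of 0 fragments set to 3). The median was the ratio of an epithelial keratin, Krt8, at 0.375, 23.1, 0 and 1.05 FPKM. Krt8 was thus near the floor in the old pair and highest in young tumor-bearing tissue. The epithelial genes Cdh1, Epcam, Krt19, Cldn3, Cldn6 and Cldn7 stayed below the floor in both old libraries. So did the mesenchymal genes Snai1, Snai2 and S100a4. The intermediate filament Vim was at 19.6, 49.6, 10.1 and 347 FPKM (34.4-fold in the old pair, 32.0 to 37.0), Cd44 at 0.902, 2.29, 0.585 and 25.2 FPKM and the galectin gene Lgals1 at 11.4, 32.7, 13.8 and 475 FPKM. Zeb1, a repressor of epithelial genes, was the lower member, at 8.80 and 4.13 FPKM. Of 21 collagens 18 were measured, 10 higher and 2 lower (median 1.27): Col4a5 of the basement membrane was at 0.990, 1.47, 0.932 and 23.4 FPKM, while Col6a1 was at 7.72, 13.1, 36.2 and 7.98 FPKM and highest in old naive tissue. Col6a2 had the same order, at 1.53, 2.31, 5.54 and 1.24 FPKM. Of 22 matrix proteases and inhibitors 17 were measured, 8 higher and 1 lower (median 0.48), with the protease Adamts1 at 3.18, 4.35, 2.53 and 69.2 FPKM (27.3-fold, 23.8 to 31.5) and the inhibitor Timp1 at 1.54, 4.67, 1.87 and 70.8 FPKM. Of 20 integrins 9 were higher and none lower (median 0.86), led by Itgax, the CD11c chain, at 0.160 and 8.39 FPKM in the old pair.

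Some genes that are usually silent in adult brain were measured in old tumor-bearing tissue. Of 22 placental, germline and fetal genes 11 were measured, 5 higher and 2 lower (45.5% and 18.2%, against 19.3% and 29.7% of all genes). The median was 0.25, and -0.81 with 1 FPKM required in both libraries. Lower were the germline gene Dazl, at 1.34 and 0.169 FPKM in the old pair, and Lin28b. Afp, alpha-fetoprotein, had 4, 7, 0 and 1306 fragments and reached 16.7 FPKM. Tex19.1, a germline gene silenced by DNA methylation, had 0 fragments in old naive tissue and 15.0 FPKM in old tumor-bearing tissue (at least 146-fold), and Rhox5 had 0 and 7.70 FPKM (at least 30.3-fold). Prl2c2, Prl2c3, Rhox6, Dppa3 and Magea4 of the same list were at 0 in both old libraries.

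Astrocyte genes divided by function. Of 22 measured reactive astrocyte genes 18 were at least 2-fold higher and none lower (median 2.67), with Serpina3n, a secreted protease inhibitor, at 9.17, 30.7, 7.87 and 339 FPKM (43.1-fold in the old pair, 38.0 to 48.9). Gfap was at 61.1, 149, 42.2 and 167 FPKM (3.96-fold, 3.80 to 4.12), so both tumor-bearing libraries lay above both naive ones. Several members of this list, Gbp2 among them, are also interferon-induced or myeloid genes. Of 20 genes of astrocyte transport and metabolism none was higher and 14 were lower (median -1.47, or -1.16 to -0.90 with other scalings). Slc1a2, the main glutamate transporter, was at 202, 201, 255 and 51.2 FPKM (4.98-fold lower, 4.89 to 5.07), and glutamine synthetase, Glul, at 536, 432, 584 and 147 FPKM. For both genes the young pair lay within 2-fold and the old tumor-bearing library was the lowest of the 4.

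**Figure D2:**
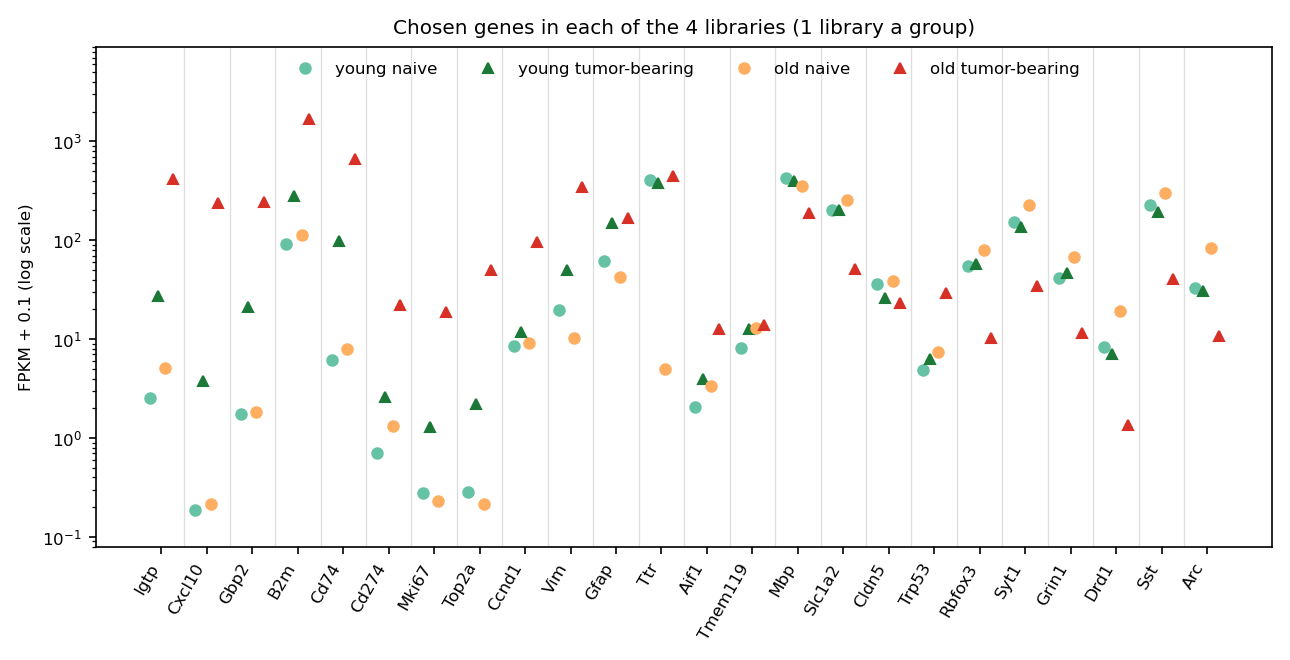
FPKM + 0.1 (log scale) of 24 genes in each of the 4 libraries, 1 point per library, circles for naive and triangles for tumor-bearing tissue. The red triangle of old tumor-bearing tissue stands above the other 3 points for immune and cell cycle genes and below them for neuronal genes, while for Ttr the old naive point is the one apart.

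Vascular and barrier cell types differed from each other. Of 20 brain endothelial markers 19 were measured, 3 higher and 6 lower (median -0.55, -0.25 to 0.01 with other scalings). These are 15.8% and 31.6%, close to the 19.3% and 29.7% of all genes. Cldn5, the tight junction claudin, was at 35.7, 26.1, 39.0 and 23.2 FPKM, lower in the tumor-bearing library of each age (1.68-fold in the old pair, 1.52 to 1.86). The higher members were Ly6a at 18.3, 25.8, 19 and 311 FPKM, Ly6c1 and the glucose transporter Slc2a1. Ly6a and Ly6c1 are also expressed by lymphocytes and myeloid cells and are induced by interferon. Of 11 measured pericyte and smooth muscle markers 7 were lower and none higher (median -1.31, or -1.02 to -0.77 with other scalings), with Vtn at 46.1 and 12.2 FPKM in the old pair. Of 13 measured leptomeningeal fibroblast markers 2 were higher and 4 lower (15.4% and 30.8%, also close to all genes, with a median of 0.43). The most abundant was Ptgds at 471, 431, 397 and 63.3 FPKM. Motile cilia genes of ependyma were low, with 8 of 18 measured, 2 higher and 3 lower (25% and 37.5%, with a median of 0.44).

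Choroid plexus markers are a case in which old naive tissue was the unusual library. Of 14 markers 12 were measured, 10 of them higher and none lower (median 2.86). Their summed level was 497, 498, 51.3 and 553 FPKM, so the old tumor-bearing library resembled both young ones and old naive tissue was far below. Ttr, the thyroid hormone carrier secreted by that epithelium, was at 402, 383, 4.88 and 445 FPKM (91.3-fold in the old pair, 74.6 to 114). Outside old naive tissue Ttr made up most of the summed level, so the size of the gap in the sums is largely that of Ttr. Folr1, the folate receptor, was at 2.26, 3.22, 0.0278 and 2.49 FPKM, with 1 fragment in old naive tissue.

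Genes of synapses, channels and axons were lower. All 22 genes of synaptic vesicle release were at least 2-fold lower (median -2.62, or -2.31 to -2.05 with other scalings), against 29.7% of all genes. Bsn, a giant scaffold of the release zone, was at 30.5, 39.5, 82.7 and 9.07 FPKM (9.11-fold lower in the old pair, 8.78 to 9.45), and Unc13a, the priming factor, at 32.6, 35.8, 59.7 and 7.59 FPKM (7.87-fold, 7.52 to 8.24). In both genes old naive tissue was the highest and old tumor-bearing tissue the lowest library. On the receiving side 18 of 19 postsynaptic scaffold genes were lower and none higher (median -2.52). Nrgn, neurogranin, a calmodulin-binding protein of dendritic spines, was at 512, 478, 972 and 141 FPKM (6.90-fold lower, 6.69 to 7.12), the largest loss in FPKM of any nuclear gene.

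Receptors and channels followed the same course. All 15 ionotropic glutamate receptor subunits were at least 2-fold lower, with log2 ratios from -2.56 to -1.13, and Grin1, the obligatory NMDA receptor subunit, was at 41.3, 46.8, 67.8 and 11.4 FPKM (5.95-fold, 5.70 to 6.22). All 14 measured GABA-A and glycine receptor subunits of 17 were lower (median -2.34), with Gabra3 at 42.0 and 4.36 FPKM in the old pair. All 23 voltage-gated sodium and calcium channel genes were lower (median -2.51), Cacng3 the most at 51.9 and 4.83 FPKM, and so were 19 of 20 potassium channel genes (median -2.33), Kcnv1 the most at 26.2 and 2.03 FPKM. Of 19 genes of the axonal cytoskeleton and axonal transport 18 were lower (median -2.30), among them Map1a at 98.1, 131, 260 and 40.6 FPKM. Under each scaling tried the medians of these 4 receptor and channel lists and of the axonal list stayed at -1.46 or below.

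Markers of neuron types were lower to unequal degrees. All 15 striatal medium spiny neuron markers were lower (median -3.10), the lowest median of the 62 lists, with Drd2 at 14.4, 11.4, 26.3 and 2.36 FPKM. Of 16 cortical excitatory markers 15 were lower and none higher (median -2.39), Lamp5 at 70.2 and 5.56 FPKM in the old pair, and of 16 inhibitory interneuron markers 14 were lower and none higher (median -2.29), Vip at 8.94 and 0.910 FPKM. Summed, striatal markers came to 482, 400, 896 and 99.7 FPKM, cortical ones to 423, 404, 692 and 98.4 FPKM and interneuron ones to 754, 658, 639 and 114 FPKM. Old naive tissue was thus the highest library for striatal and cortical markers but not for interneuron markers. The order of the medians is set against old naive tissue alone. The pan-neuronal marker Rbfox3, which encodes NeuN, was at 54.5, 57.3, 79.6 and 10.2 FPKM (7.79-fold lower, 7.35 to 8.26). Cerebellar markers, summed over 15 genes, came to 730, 717, 117 and 34.0 FPKM, so both old libraries were far below both young ones. Gabra6 and Pcp2, which define cerebellar granule and Purkinje cells, stayed below 1 FPKM in both old libraries, and 7 of the 9 measured members were lower (median -2.19). Thalamic and midbrain-hindbrain markers, summed, came to 179, 154, 27.2 and 53.6 FPKM, with 5 of 11 measured members higher and 1 lower (median 0.96). Prkcd, a thalamic marker, was at 16.5, 18.5, 3.15 and 23.5 FPKM, so that old naive tissue was again the low library. The part that the dissected region has in the neuronal results was not tested.

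Neuropeptides of the forebrain were lower without exception, in all 17 genes of the list (median -2.90, or -2.62 to -2.37 with other scalings). Sst, somatostatin, was at 227, 194, 298 and 40.4 FPKM (7.37-fold lower in the old pair, 6.78 to 8.02), Penk, the enkephalin precursor of striatal neurons, at 124, 88.0, 189 and 17.9 FPKM (10.6-fold, 9.75 to 11.5) and Tac1 at 10.4, 6.24, 20.5 and 1.81 FPKM. Of 14 genes of this list with a promoter entry 4 (28.6%) held the palindromic cyclic AMP response element TGACGTCA, namely Sst, Cartpt, Scg2 and Chgb, against 2.03% of all genes of the table and 3.51% of the matched genes of this comparison. The promoter of Sst is shown as the example, on the minus strand at chr16:23890845-23891094, with the element in capitals 48 bases before the start.
Sst: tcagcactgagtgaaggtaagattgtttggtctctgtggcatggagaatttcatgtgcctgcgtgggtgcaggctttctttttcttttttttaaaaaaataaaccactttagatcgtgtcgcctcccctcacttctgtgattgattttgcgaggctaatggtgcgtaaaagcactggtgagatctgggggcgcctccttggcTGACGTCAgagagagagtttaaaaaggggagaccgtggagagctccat
Hypothalamic neuropeptides were mostly below the floor, with 5 of 13 measured, 1 higher and 2 lower (median -0.37, -0.08 to 0.17 with other scalings).

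Genes switched on by neuronal activity were lower, with exceptions. Of 18 immediate early genes 11 were at least 2-fold lower and 2 higher (median -1.42, or -1.12 to -0.86 with other scalings). Npas4, which depends on neuronal calcium entry, was at 5.49, 8.67, 11.6 and 0.905 FPKM (12.8-fold lower in the old pair, 10.3 to 16.2), and Egr1 at 52.0, 54.5, 120 and 12.3 FPKM (9.70-fold, 9.15 to 10.3). Higher were Jun, at 17, 20.7, 15.1 and 78.7 FPKM (5.20-fold, 4.82 to 5.62), and Ier2, both of which also respond to growth factors and stress. Of 16 circadian clock genes 13 were lower and none higher (median -1.89), with Per2 at 6.66, 8.78, 11.5 and 1.60 FPKM and Npas2 at 14.0 and 1.91 FPKM in the old pair.

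Chaperones were examined by compartment. Of 18 endoplasmic reticulum chaperones and stress genes 10 were at least 2-fold higher (55.6%, against 19.3% of all genes) and none lower (median 1.26), while the young pair had a median of -0.45. Pdia4, a disulfide isomerase, was at 27.2, 18.5, 16.5 and 87.0 FPKM (5.28-fold higher in the old pair, 4.85 to 5.75) and Hsp90b1 at 82.3, 60.9, 47.6 and 180 FPKM (3.77-fold, 3.63 to 3.92). Of 17 cytosolic heat shock genes 1 was higher (Bag3) and 5 lower (29.4%, close to the 29.7% of all genes, with a median of -0.45, -0.14 to 0.12 with other scalings). Hspa1b was at 5.22 and 1.10 FPKM, a value that can be shared with its near copy Hspa1a. Among the endoplasmic reticulum genes 15 had a promoter entry, and 14 of these (93.3%) held a CCAAT box (CCAAT, either strand), against 41.1% of all genes of the table and 42.6% of the matched genes of this comparison. The box was also in 11 of 14 circadian clock genes (78.6%), a list that was lower, so it is not particular to either direction. Hspa5, the chaperone BiP, is shown for its 4 boxes in capitals, on the plus strand at chr2:34771840-34772089, the first of them read from the opposite strand.
Hspa5: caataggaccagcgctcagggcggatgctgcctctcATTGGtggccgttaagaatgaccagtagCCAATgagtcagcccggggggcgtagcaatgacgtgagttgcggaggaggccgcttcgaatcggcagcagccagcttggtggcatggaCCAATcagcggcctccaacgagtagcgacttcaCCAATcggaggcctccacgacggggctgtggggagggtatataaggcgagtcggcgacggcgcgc

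Lysosomal and redox genes showed further contrasts. Of 17 measured cathepsins and lysosomal membrane proteins 10 were higher and 2 lower (median 1.71), with Gpnmb, a glycoprotein of phagocytes and melanocytes, at 0.496, 3.72, 0.903 and 36.8 FPKM (40.8-fold in the old pair, 33.2 to 50.7) and cathepsin L, Ctsl, at 12.2, 12.9, 11.5 and 97.2 FPKM. The lower members were Ctsf, at 35.3 and 10.3 FPKM, and Ctsk. Of 19 glutathione, peroxide and iron genes 5 were higher and 3 lower (median -0.07, 0.22 to 0.47 with other scalings). These are 26.3% and 15.8%, against 19.3% and 29.7% of all genes. The heme-degrading enzyme Hmox1 was at 2.41 and 18.7 FPKM (7.76-fold higher, 6.03 to 10.1), and the mitochondrial dismutase Sod2 at 20.6 and 8.80 FPKM. Red cell genes were lower as well: the 5 measured hemoglobin and erythroid genes of 7 were all lower (median -1.89), with sums of 387, 308, 604 and 160 FPKM and Hbb-bs at 309 and 83.5 FPKM in the old pair.

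**Figure D3:**
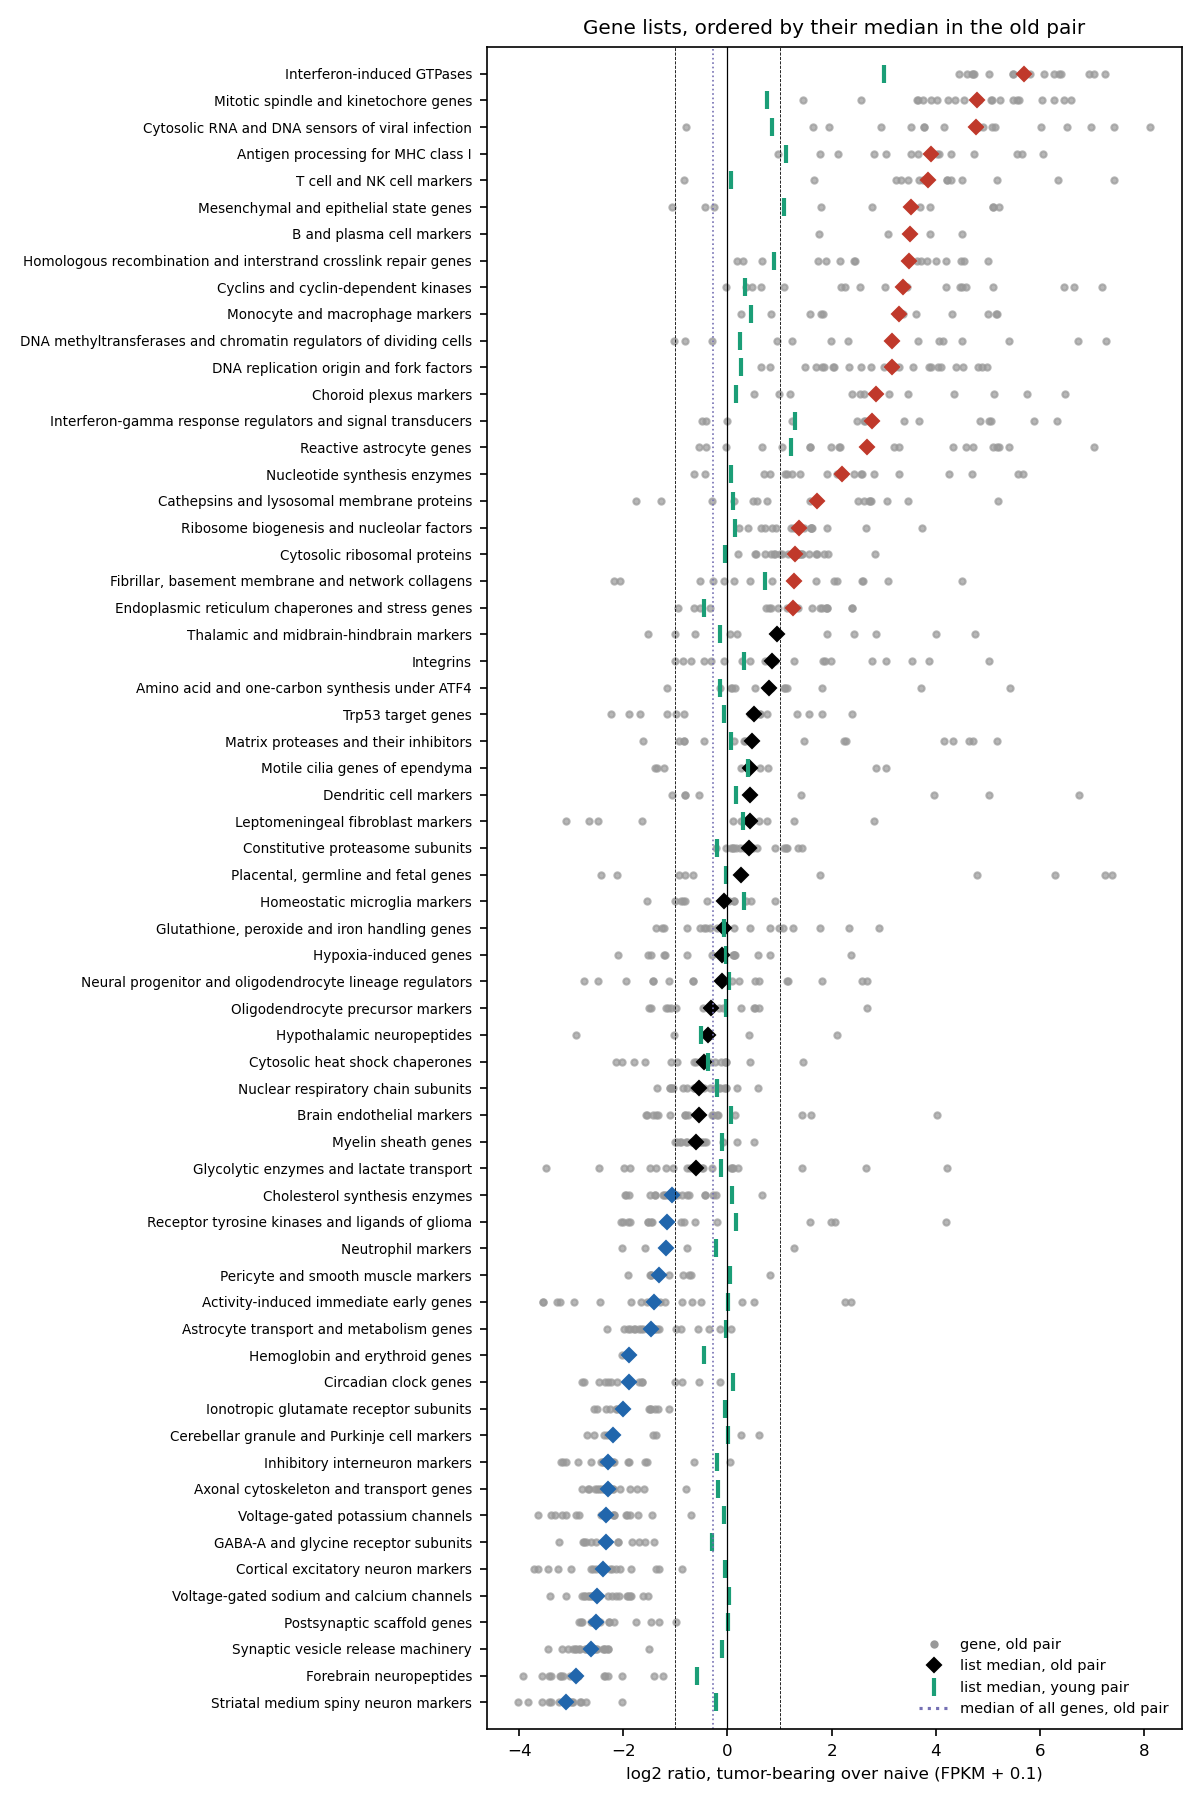
Log2 ratios of tumor-bearing over naive tissue for the measured genes of 62 lists in the old pair (grey points), with the list median in the old pair as a diamond (red at 1 or above, blue at -1 or below, black between) and the median in the young pair as a green bar. Of the 62 medians 21 lie at 1 or above, led by interferon-induced GTPases, and 20 at -1 or below, down to striatal neuron markers.

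By absolute amount, the 10 largest gains among nuclear genes were B2m, Cd74, H2-K1, H2-D1, Ifitm3, Lgals1, Rplp0, Tpt1, Eef1a1 and Ttr. B2m, the light chain of MHC class I, was at 92.5, 277, 113 and 1683 FPKM (14.9-fold in the old pair, 14.2 to 15.7), and Cd74, the chaperone of MHC class II molecules, at 6.04, 98.5, 7.84 and 660 FPKM (84.2-fold, 73.4 to 97.1). Ifitm3, an interferon-induced membrane protein, was at 13.8, 54.0, 14.5 and 515 FPKM (35.5-fold, 30.3 to 41.9). Eef1a1, the elongation factor of most cells, was at 838 and 2046 FPKM in the old pair (2.44-fold, 2.41 to 2.47), while its counterpart in mature neurons and muscle, Eef1a2, was at 702 and 106 FPKM (6.64-fold lower, 6.44 to 6.84). The young pair was nearly even for both elongation factors, with log2 ratios of -0.14 and -0.20. Among the largest losses Camk2n1, an inhibitor of the kinase CaMKII, was at 469, 376, 654 and 62.1 FPKM (10.5-fold lower, 10.3 to 10.8) and the motor gene Kif5a at 397, 439, 663 and 128 FPKM (5.19-fold, 5.11 to 5.27). The calmodulin genes Calm2 and Calm3, Cpe, Selenow, Aplp1 and Fth1 complete the 10 largest losses with Nrgn, Eef1a2, Camk2n1 and Kif5a, Fth1 being only 1.38-fold lower (1.37 to 1.39), with a log2 ratio of -0.46 that turned to 0.11 when scaled by fragments in genes.

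Most differences came with the old tumor-bearing library apart from all 3 others. Of the 2627 higher genes 2115 (80.5%) were at least 2-fold above every other library in old tumor-bearing tissue, and of the 4028 lower genes 3130 (77.7%) were at least 2-fold below every other library. Included are 71 higher and 86 lower genes in which old naive tissue also stood apart, in the opposite direction. The counts with old tumor-bearing tissue apart were 1148 of 1509 higher genes with 1 FPKM required in both libraries, and 1909 of 2519 lower genes when scaled by fragments in genes. In 76 higher genes (2.89%) and 58 lower genes (1.44%) it was old naive tissue alone that stood apart, counts that went from 23 to 167 and from 20 to 136 across the alternatives that moved them. Besides choroid plexus genes, the first set held C1ql2, a synaptic organizer, at 6.41, 7.05, 0.511 and 8.15 FPKM and Cd38 at 3.63, 2.76, 0.559 and 7.05 FPKM. The second set held Chrm4, a muscarinic receptor of the striatum, at 11.9, 11.7, 33.2 and 6.30 FPKM. C1ql2, Cd38 and Chrm4 were picked after their values were seen.

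Some of the genes in each direction lay side by side. Counting runs of at least 5 neighbouring measured genes that were all at least 2-fold apart in 1 direction, 30 runs held 200 higher genes (7.61% of them) and 41 runs held 257 lower genes (6.38%). Runs form more readily in the more frequent direction, and 29.7% of all genes were lower against 19.3% higher. The 2 run shares are therefore not directly comparable, and the number of runs that these rates alone would give was not tested. The longest higher run, 12 genes on chromosome 14, covered mast cell proteases and granzymes from Cma1 to Gzmb and then Cenpj and Parp4 (median log2 ratio 6.81). Runs of 11 genes were the Ifi200 family with Aim2 on chromosome 1 (median 5.77), the MHC class II region with Tap1, Tap2, Psmb8 and Psmb9 on chromosome 17 (5.55), and the Gimap genes with Tmem176a, Tmem176b, Gpnmb, Malsu1 and Igf2bp3 on chromosome 6 (from 1.19 to 5.71). Further runs, each of mostly 1 family, held the Ms4a genes on chromosome 19 (9 genes, 3.62), the Slfn genes (8 genes, 4.95) and the chemokines Ccl5, Ccl9, Ccl6, Ccl3 and Ccl4 (8 genes, 2.39) on chromosome 11, 5 Gbp genes on chromosome 5 (7 genes, 4.73) and Trim genes from Trim6 to Trim30d on chromosome 7 (7 genes, 4.11). These are families of similar sequence, so fragments may be shared within a run. Among lower genes the longest runs were clustered protocadherins, cell surface proteins that give neurons their identity, with 19 alpha and beta genes (median -1.92) and 17 gamma genes (-2.23) on chromosome 18. The alpha and the gamma genes each share constant exons, so their values are not independent.

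Long genes were lower more often than short ones. The median log2 ratio was -0.15 in 1524 genes that span less than 5 kb, -0.42 at 50 to 100 kb, -0.74 at 100 to 200 kb and -1.50 in 824 genes over 200 kb. Among genes at 5 FPKM or more in both libraries the medians went from -0.13 to -1.42 between these classes. The share at least 2-fold lower went from 27.8% in the shortest class to 63.8% in the longest, and the share higher from 24.7% to 8.01%. In the young pair the same classes had medians between -0.07 and -0.00. Many long genes are neuronal adhesion and channel genes, and gene length and cell type were not separated here.

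**Figure D4:**
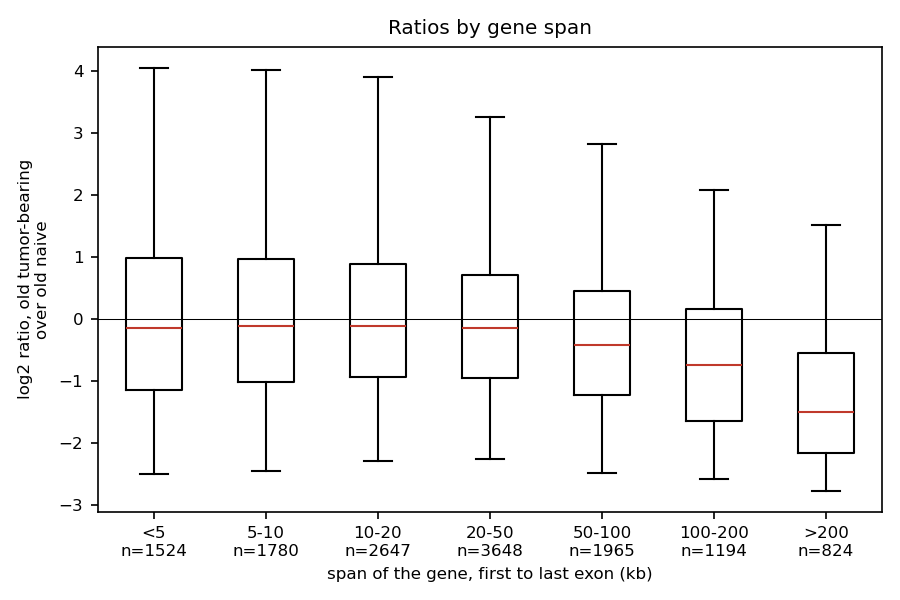
Log2 ratio of old tumor-bearing over old naive tissue by the genomic span of the gene in kb, with boxes from the 25th to the 75th percentile, the median in red and whiskers from the 5th to the 95th percentile. Medians are -0.15 in the shortest class, stay near it up to 50 kb and reach -1.50 in the longest.

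The young pair, which shares no library with the old pair, showed far fewer differences. Of the 12546 genes that also reached 1 FPKM in a young library, 277 (2.21%) were at least 2-fold higher in young tumor-bearing than in young naive tissue and 30 (0.239%) lower. Of those 277 higher genes 242 (87.4%) were also higher in the old pair, which is 13.1% of the 1843 genes higher there. Of all 12546 genes 14.7% were higher and 31.2% lower in the old pair. The 242 shared genes became 49 with a floor of 5 FPKM and 579 with no floor. In 229 of the 242 the old log2 ratio was the larger one, with medians of 4.38 and 1.62. Of the 30 lower genes 13 (43.3%) were also lower in the old pair, and opposite directions at 2-fold or more occurred in 24 genes, 17 lower and 7 higher in the old pair. Across the 12546 genes Pearson's r between the log2 ratios was 0.46 and Spearman's rho 0.25, as a description only, since genes are not independent replicates. Among the genes higher in both pairs, Cd74 had log2 ratios of 6.38 and 4.01 in the old and young pair, Nlrc5 5.89 and 4.09, and Zbp1 7.42 and 4.27. Neuronal lists had young medians from -0.59 for forebrain neuropeptides, -0.51 for hypothalamic neuropeptides and -0.30 for GABA-A and glycine receptors to -0.10 for synaptic vesicle release and 0.03 for sodium and calcium channels.

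**Figure D5:**
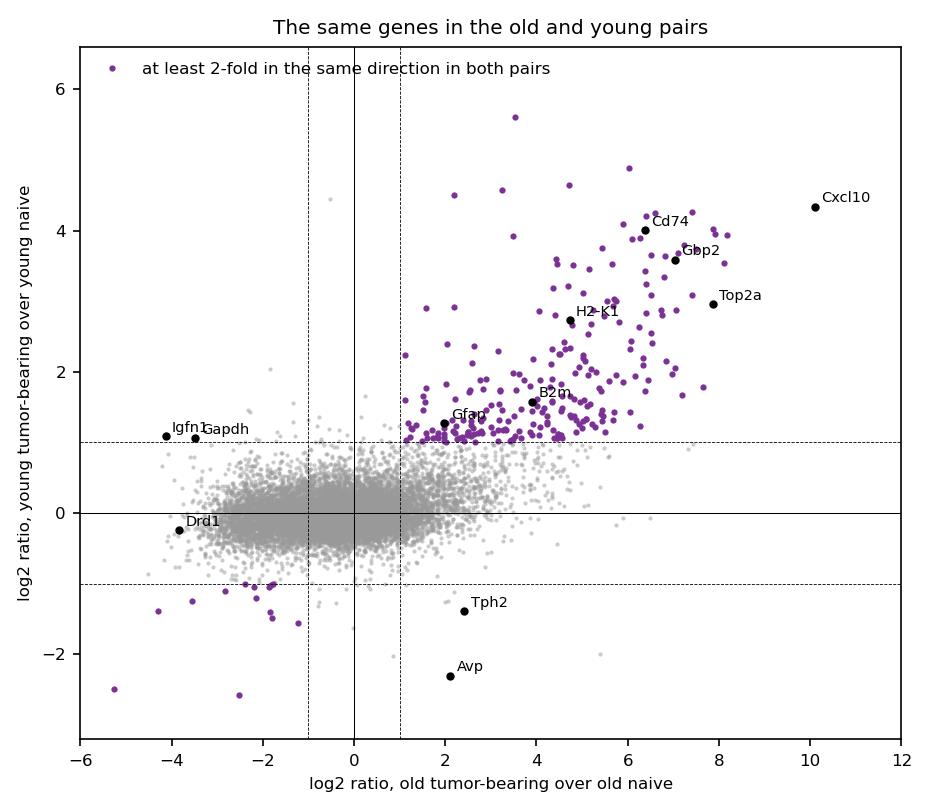
Log2 ratio of tumor-bearing over naive tissue in the old pair (x axis) and the young pair (y axis) for 12546 protein-coding genes, with dashed lines at 2-fold and genes at least 2-fold in the same direction in both pairs in purple. The purple points lie almost all at the upper right, where Cxcl10 and Cd74 stand, while the spread to the left in the old pair has no counterpart in the young pair.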

How the data were processed

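Poly-A RNA of brain tissue was sequenced as paired-end libraries, 1 for each of 4 groups, and groups were taken from the labels. The values deposited by the authors were FPKM per Ensembl gene, per the file headers. The submitters' processing notes name HISAT2 as the aligner and mm10 as the genome. How fragments were counted, on which annotation, with what filters and from how many pooled mice is not given in the sources used here. Both a strand-marking and an unstranded preparation are described, per the labels' protocols, so fragments of overlapping antisense genes could not be told apart.

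GENCODE M21, made on that genome, supplied symbols, gene types, exon lengths and coordinates. FPKM times exon length came in whole steps, which gave the fragments of each gene: of 32867 genes above 0, 31928 (97.1%) were whole in all 4 libraries within 0.03 fragments or 2e-05 of the value. The sources used here do not say what the depth divisor counts. In a gene of 1 kb, 3 fragments, the limit that a count of 0 allows, stood for 0.192 FPKM in old naive and 0.129 FPKM in old tumor-bearing tissue. The log2 ratio compared FPKM + 0.1, a pseudocount that shrinks differences of low genes, and genes at least 2-fold apart were counted. Folds are ratios of FPKM, with exact conditional binomial 95% intervals of fragments. Without molecular identifiers, fragments are no independent molecules, and intervals hold counting error only. A fold against 0 fragments is a lower bound from 3 fragments. With 1 library per group no test was possible. The functions were tested on simulated data.

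The members and the 62 gene lists were chosen with earlier results of these data known, so lists give no independent support. Named genes were the 10 highest and 10 lowest ratios with established symbols that reached 10 FPKM, the 10 largest gains and losses in FPKM, for each list up to 4 genes farthest from 0 and those that went against its direction, and 12 genes of interest. Igtp, Ifngr1, Hspa5, Cd4, Krt8 and the genes of the plot by library were added as examples, and 962 of 1061 listed genes were measured. Promoters were those of RefSeq on GRCm38.p6, matched for 10752 of 13581 symbols, and the classes in which motifs were counted were merged after the data were seen. Python 3.11.15, numpy 2.4.6, pandas 2.3.3, scipy 1.17.1 and matplotlib 3.10.9 were used. A few named genes are not reported here. In all, 10 alternatives of pseudocount, floor, scaling and zero handling were tried.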

Additional observations from a re-analysis of the deposited data

Results flagged for a closer look

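Few genes were 2-fold apart in opposite directions in the old and young pairs, and the difference between the pairs was not tested. Avp, the vasopressin precursor of hypothalamic neurons, had a log2 ratio of 2.11 in the old pair and -2.30 in the young pair, from levels of 5.93, 1.13, 0.665 and 3.20 FPKM, where the young pair precedes the old pair and naive precedes tumor-bearing tissue. Tph2, the serotonin synthesis enzyme of raphe neurons, had 2.42 and -1.39, at 6.88, 2.57, 0.355 and 2.33 FPKM. For both genes young naive tissue was the highest and old naive tissue the lowest library. Gapdh had -3.49 and 1.06, and Igfn1 had -4.13 and 1.09, and both were highest in old naive tissue.

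Genes outside the protein-coding set also differed. H19, a maternally expressed noncoding RNA that is silenced in most tissues after birth, had 142841 fragments in the old tumor-bearing library, or 2497 FPKM, against 0.052 FPKM in old naive tissue and 0.159 and 6.54 FPKM in the young pair. The old naive value rests on 2 fragments, and the fold of 48056 has an interval from 13303 to 396816. Among constant regions of antigen receptors, which mark lymphocytes, Igkc had 513 fragments in old tumor-bearing tissue against 12 in old naive tissue, Trac 146 against 4, Trbc1 100 against 1 and Ighg2b 91 against 3. Other constant regions did not share this direction: Trbc2 was at 20.2 FPKM in old naive and 8.58 FPKM in old tumor-bearing tissue, Ighg2c was 2.99-fold lower (2.22 to 4.07) and Ighm was at 23.4 and 24.5 FPKM. These genes were picked after their values were seen.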

How the results depend on the processing

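Results were recomputed under 10 alternatives, each changing 1 choice. Over all settings, values of the 307 named genes 2800 times kept their side of 2-fold, 97 times fell inside it and 4 times went outside it, and 1 changed sign (Fth1, from -0.46 to 0.11 when scaled by fragments in genes). List medians kept their side 565 times, fell inside 31 times, went outside 19 times and reversed once: T cell and NK cell markers turned to -0.84 with 1 FPKM required in both libraries, where the genes near 0 in naive tissue drop out. In all, 12 list medians changed sign under some setting, 32 times over, 9 of them with scaling, as given beside them, and dendritic cell markers and placental, germline and fetal genes at -0.81 with 1 FPKM required in both libraries. Apart from T cell and NK cell markers, none of these was 2-fold from 0. Genes higher in old tumor-bearing tissue numbered 1746 with a floor of 5 FPKM, 1509 with 1 FPKM in both libraries and 4012 when scaled by fragments in genes, which gave 2519 lower genes. With 1 FPKM in both libraries 1148 higher genes had old tumor-bearing tissue apart, and scaling by fragments in genes left 1909 such lower genes. Genes higher in both pairs numbered 106 with a pseudocount of 1 FPKM, 49 with a floor of 5 FPKM, 579 with no floor and 74 with 1 FPKM in both libraries. Genes lower in both numbered 3, 1, 45 and 2 in the same order, and 8 under equal totals, trimmed totals and fragments in genes. Higher genes with only old naive tissue apart numbered 31, 23, 167 and 24 in that order of settings, and lower ones 26, 20, 136 and 23. Lower ones numbered 20, 36 and 32 under those 3 scalings. For the other settings the cause was not tested. No paired analysis was possible because each group is 1 library. No replicate could be left out, and differences between mice are in none of these values.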
